A study of Homo sapiens with 6 samples.

Results

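The genes described here are 48 members of the ATF4 stress response, among them 10 cytosolic aminoacyl-tRNA synthetases. They were picked by symbol from 57820 rows of a gene-level count table, and all 48 were among the 15605 genes with enough counts to be tested. M14 is a human melanoma cell line, and every library came from M14 cells that carry a doxycycline-inducible short hairpin RNA against STAG2, a subunit of the cohesin complex that holds and loops chromosomes. The 3 WT libraries came from these cells grown without doxycycline and the 3 KD libraries from the same cells given doxycycline for 5 days, in medium that held puromycin in both groups. WT here therefore means uninduced cells that carry the hairpin, and an effect of doxycycline itself cannot be told apart from knockdown. Poly(A) RNA was sequenced, and the comparison asks what changed in the transcriptome when STAG2 was depleted.

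ATF4 is a transcription factor made when the initiation factor eIF2 is phosphorylated by the kinases GCN2, PERK, PKR or HRI, which sense amino acid shortage, unfolded protein, double-stranded RNA and haem shortage or mitochondrial stress. Its mRNA is translated better when overall translation falls, so that ATF4 protein can rise without a change in ATF4 mRNA. Together with CEBP family partners it binds elements named CARE and raises genes for amino acid synthesis and uptake, for tRNA charging, and for further regulators such as DDIT3 (CHOP) and TRIB3.

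The targeted gene was checked first. STAG2 stood at 66.5, 34.8 and 28.8 CPM (the usual depth-scaled read count, relative to the TMM-scaled library size) in WT 1, 2 and 3 and at 16, 7.31 and 6.70 CPM in KD 1, 2 and 3. The groups did not overlap, and STAG2 was lower in KD by a log2 fold change of -2.12 (SE 0.43, adjusted p = 0.0342, edgeR quasi-likelihood test). The call was lost without WT 2, WT 3, KD 2 or KD 3, with log2 fold changes of -2.63 to -1.68 over the 6 fits that left out 1 library and an adjusted p of up to 0.168. Total expected counts ran from 24895998 to 35181733 per library, so 3 counts corresponded to 0.0870 to 0.112 CPM. WT 1 stood apart from the other 5 libraries: it had 20646 genes above 0, against 16028 to 17995, and 5.07% of its counts were mitochondrial, against 2.12 to 2.94%. All 8 melanocyte lineage markers were present. Their summed level was 1861 to 6311 CPM in WT, highest in WT 1, and 1195 to 2606 CPM in KD. Summed markers of other cell types reached 93.6 CPM in WT and 23.4 CPM in KD for fibroblasts, 2.7 and 3.70 CPM for leukocytes with CD3E at 0 in every library, 419 and 281 CPM for epithelium, and 3.69 and 5.45 CPM for endothelium. Nearly all of the epithelial sum was KRT18, at 131 to 415 CPM in WT and 148 to 280 CPM in KD. EPCAM and CDH1 were at 0.406 CPM or below in every library, and KRT14 at 3.95 CPM or below. The fibroblast sum was led by COL1A1, which reached 85.1 CPM in WT and 19.4 CPM in KD.

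With all 6 libraries and no pairing, 2 of the 48 members rose in KD (adjusted p under 0.05, edgeR), WARS and PPP1R15A, where 1.75% of all tested genes were called higher. None of the 48 was called lower, against 0.839% of all tested genes, and none was lower at an unadjusted p under 0.05, nor was any called lower by DESeq2 or limma-voom. In bulk RNA a change in the number of cells that express a gene and a change in RNA per cell cannot be told apart. In all, 15 members had an unadjusted p under 0.05, against 2302 of all 15605 tested genes, 1090 of them lower. DESeq2 called 10 members higher, where it called 3.51% of all genes higher, and limma-voom 3 members, where it called 1.76%. The median log2 fold change of the 48 was 0.51, against -0.03 over all tested genes, and 39 of 48 (81.25%) had a positive value, against 48% of all genes. In 17 members every KD library lay above every WT library, which 11.8% of all genes did, and in no member did every KD library lie below. The 3 libraries of a group carry the same replicate numbers as those of the other. Same-numbered libraries varied together across the transcriptome, most clearly those numbered 1. With the replicate number as a block, 15 members were called higher and 0 lower by edgeR, against 5.1% and 4.42% of all genes, and the median was 0.60. DESeq2 with the block called 24 higher and 0 lower, against 1148 and 1075 of all 15605 tested genes. Below, a call, a log2 fold change or an adjusted p is that of edgeR unless another tool is named.

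**Figure D1:**
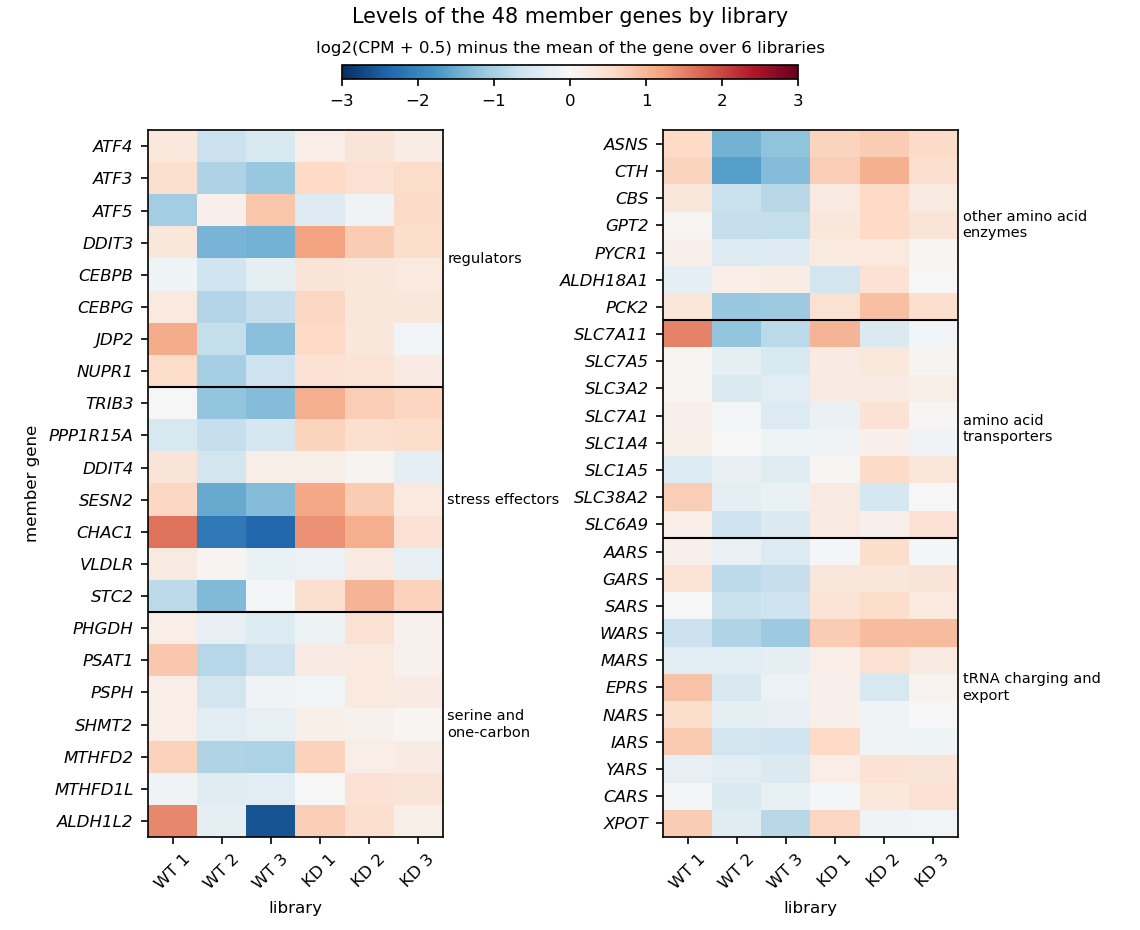
Each cell gives log2(CPM + 0.5) of a member gene (vertical axis, grouped by role) in a library (horizontal axis) minus the mean of that gene over the 6 libraries. In most rows WT 2 and WT 3 are blue and the 3 KD libraries red, while WT 1 is red with the KD libraries in rows such as CHAC1, ASNS, CTH and MTHFD2.

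The map of levels by library shows WT 1 apart from WT 2 and WT 3. WT 1 was the highest of the WT libraries in 43 of 48 members (89.6%), against 41.2% of all tested genes, and it was more than 2-fold above both other WT libraries in 20 members (41.7%), against 9.75%. The ratio of WT 1 to the mean of WT 2 and WT 3 ran from 0.330 in ATF5 to 16.6 in CHAC1, with a median of 1.67 over the members. KD 1 was more than 2-fold above both other KD libraries in 1 member, SLC7A11, against 6.44% of all genes. In WT 1, a single library, high levels of most members came with a high mitochondrial share, many detected genes and high summed melanocyte markers. The part of each in the result was not tested. KD 1 was also above KD 2 and KD 3 in PMEL (1254 against 358 and 364 CPM) and DCT (421 against 106 and 109 CPM). SOX10 was lowest of its group in both WT 1 and KD 1 (572 and 324 CPM). S100B in KD 1 lay between the other KD libraries. KD 1 was the highest KD library in 22 of 48 members (45.8%), against 38.6% of all tested genes. Without WT 1, 18 members were called higher and 0 lower, against 2.06% and 1.16% of 16509 genes tested in that fit. Without both libraries numbered 1, 25 were called higher and 0 lower, against 2.88% and 1.85% of 15991 genes. WT 1 was the highest WT library in most members, so leaving it out raises their fold changes. Calls gained without WT 1, here and below, follow in part from that. Leaving out WT 2, WT 3, KD 2 or KD 3 left 1 member called, WARS, and leaving out KD 1 left 2.

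**Figure D2:**
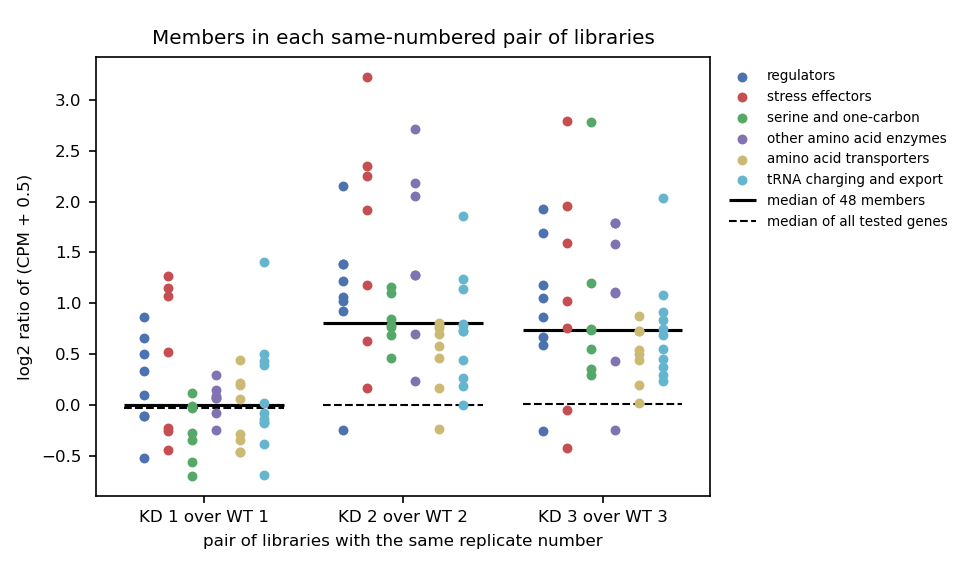
Points give the log2 ratio of (CPM + 0.5) between KD and WT libraries of the same replicate number (vertical axis) for each member, by pair (horizontal axis) and role (color). Solid lines mark the median of the 48 members, 0.00 in the first pair, 0.80 in the second and 0.74 in the third, and dashed lines the median of all tested genes.

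The plot of ratios by pair shows the median of the members shifted upward in the pairs numbered 2 and 3 and not in the pair numbered 1. KD 2 was above WT 2 in 45 of 48 members and KD 3 above WT 3 in 44, with median log2 ratios of 0.80 and 0.74. KD 1 was above WT 1 in 24 of 48, with a median of 0.00. By role, the medians of the pair numbered 1 ran from -0.28 in the serine and one-carbon genes to 0.52 in the stress effectors. Over all tested genes the medians of the pairs numbered 1, 2 and 3 were -0.03, 0.00 and 0.01, and KD was above WT in 47.7%, 49.8% and 50.5% of genes.

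Among the 8 regulators, edgeR called 0 without the block (3 at an unadjusted p under 0.05, 2 called by DESeq2), 3 with it and 4 without WT 1. Of all tested genes, these edgeR fits called 1.75%, 5.1% and 2.06% higher, and the same shares stand beside the counts by role below. The median log2 fold change of the regulators was 0.61. ATF4, the factor itself, had 709, 367 and 419 CPM in WT and 654, 747 and 664 CPM in KD. WT 1 lay among the KD libraries and the groups overlapped. Its log2 fold change was 0.47 (SE 0.26, adjusted p = 0.475), 0.53 with the block (adjusted p = 0.143) and 0.80 without WT 1 (adjusted p = 0.0566), and it was called without both libraries numbered 1 (0.85, adjusted p = 0.0250). DESeq2 did not call ATF4 without the block (adjusted p = 0.387) and called it with the block (0.52, adjusted p = 0.0455). DDIT3, the pro-apoptotic partner of CEBP factors known as CHOP, had 40.4, 11.8 and 11.6 CPM in WT and 74.1, 54.0 and 45.8 CPM in KD. The groups did not overlap, with WT 1 closest to KD. Its log2 fold change was 1.45 (SE 0.47, adjusted p = 0.165), and with the block it was called at 1.68 (SE 0.26, adjusted p = 0.00276). DESeq2 called DDIT3 without the block too (adjusted p = 0.0219). Reads of DDIT3 (GRCh37, chr12:57910371-57915520, minus strand) carry an uncertainty, because the gene overlaps MARS on the opposite strand and the strand setting of the counting was not stated.

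CEBPB, a leucine zipper factor of stress and inflammation, had 132, 94.7 and 117 CPM in WT and 187, 180.0 and 176 CPM in KD, with no overlap. It was called with the block at a log2 fold change of 0.67 (adjusted p = 0.0206). Without the block it was called by DESeq2 (adjusted p = 0.0287) and not by edgeR (0.66, SE 0.19, adjusted p = 0.127). CEBPG, the dimer partner of ATF4 at many CARE sites, had 37.6, 16.3 and 18.6 CPM in WT and 47.3, 38.6 and 39.0 CPM in KD. Its groups did not overlap, and it was called with the block (0.88, adjusted p = 0.0297) and by neither edgeR (0.79, SE 0.32, adjusted p = 0.287) nor DESeq2 (adjusted p = 0.198) without it. ATF3 and NUPR1, both stress-induced nuclear factors, were not called by edgeR in the fits of all 6 libraries and were called without WT 1, at 1.63 and 1.15 with adjusted p of 0.0171 and 0.0150. DESeq2 with the block called both (adjusted p = 0.0354 and 0.0202). JDP2 (0.23) and ATF5 (-0.09) were not called, and ATF5 was the member in which WT 1 stood furthest below the other WT libraries, at 30.1 CPM against 70.1 and 112 CPM. ATF5 overlaps NUP62 on the opposite strand, at a mean of 157 CPM in WT and 175 CPM in KD. Its reads therefore carry the same uncertainty of strand as those of DDIT3.

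The 7 stress effectors had the highest median of the 6 roles, 1.12, with 1 called by edgeR and 2 by DESeq2 and by limma-voom without the block, 3 with it and 4 without WT 1. PPP1R15A (GADD34), which brings a phosphatase to eIF2 and so restores translation (GRCh37, chr19:49375469-49379316, plus strand), had 109, 93.7 and 108 CPM in WT and 243, 213 and 220.1 CPM in KD. Unlike most members it was level across the WT libraries. It rose 2.17-fold (log2 1.12, SE 0.18, adjusted p = 0.0120), and the block gave 1.12 with an adjusted p of 0.000918. The call did not hold with 1 library fewer in 4 of 6 cases: the adjusted p was 0.0723 without WT 2, 0.0556 without WT 3, 0.0580 without KD 2 and 0.0854 without KD 3, while the log2 fold change stayed between 1.05 and 1.15.

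TRIB3, a pseudokinase that dampens ATF4 output and AKT signalling, had 250.4, 109 and 101 CPM in WT and 528, 414 and 392 CPM in KD. The groups did not overlap although WT 1 was 2.39-fold above the mean of the other WT libraries. Its log2 fold change was 1.54 (SE 0.35) with an adjusted p of 0.0517, and with the block it was called at 1.65 (adjusted p = 0.000522). Without the block TRIB3 was called by DESeq2 (adjusted p = 0.000118) and limma-voom (adjusted p = 0.0209), and by edgeR with RLE factors (adjusted p = 0.0495), with no filter on low counts (adjusted p = 1.22e-07) or with at least 10 counts in every library (adjusted p = 0.0306). With 1 library left out its adjusted p ran up to 0.201, without WT 3. SESN2, a leucine sensor that restrains mTORC1, had 137, 30.9 and 35.5 CPM in WT and 197, 149 and 108 CPM in KD. WT 1 lay above KD 3, and SESN2 was called with the block (1.47, adjusted p = 0.00930) and not without it (1.16, SE 0.52, adjusted p = 0.341).

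CHAC1, which degrades glutathione, showed the widest gap between WT libraries, with 59.9, 3.92 and 3.31 CPM in WT and 49.9, 40.9 and 26.0 CPM in KD. Its highest value of all 6 libraries was in WT 1. CHAC1 was not called without the block (0.80, SE 0.91, adjusted p = 0.791) or with it (2.06, adjusted p = 0.0650), and without WT 1 the log2 fold change was 3.42 (adjusted p = 0.000953). STC2, a secreted glycoprotein, stood at only 0.435 to 1.75 CPM in WT and 2.77 to 4.26 CPM in KD and was not called (1.77, SE 0.73, adjusted p = 0.295). DDIT4, an mTORC1 inhibitor, and VLDLR, a lipoprotein receptor, lay at -0.05 and -0.11.

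**Figure D3:**
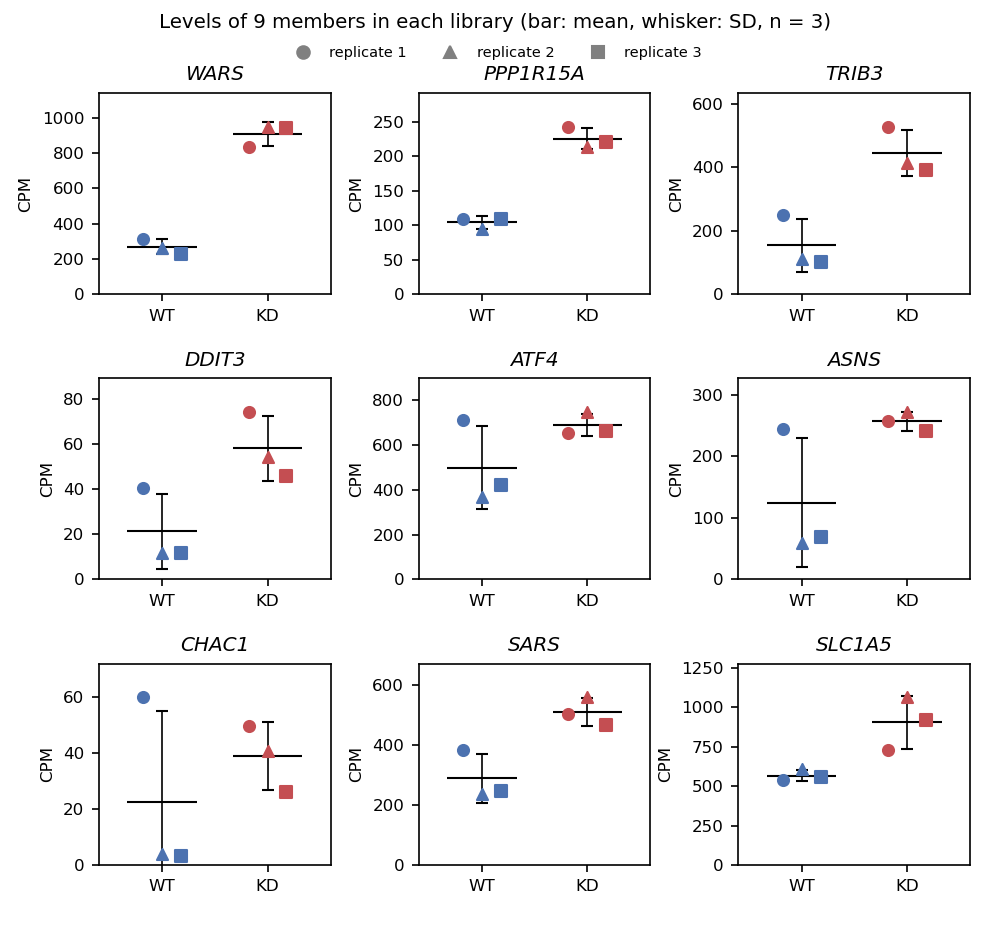
CPM (vertical axes, from 0) of 9 members in each WT and KD library (horizontal axes), with the mean (bar) and SD (whisker, n = 3, cut at 0 for CHAC1) of each group and a marker shape for each replicate number. WARS and PPP1R15A are level within WT, whereas WT 1 (circle) sits with the KD libraries for ATF4, ASNS and CHAC1.

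Of the 7 enzymes of serine synthesis and the folate one-carbon cycle, 0 were called by edgeR without or with the block, 1 had an unadjusted p under 0.05, and DESeq2 called 0 without the block and 2 with it, MTHFD2 (adjusted p = 0.00659) and MTHFD1L (adjusted p = 0.0485). The median was 0.29 and all 7 values were positive. MTHFD1L, a mitochondrial formate-producing enzyme, was the member of this group without overlap, at 55.6 to 65.9 CPM in WT and 71.3 to 96.3 CPM in KD (0.56, adjusted p = 0.208), and was called without both libraries numbered 1 (0.77, adjusted p = 0.0372). PSAT1, of serine synthesis, and MTHFD2, of the mitochondrial folate pathway, were 2.93-fold and 3.08-fold higher in WT 1 than in the mean of WT 2 and WT 3, and both were called without WT 1 (0.96 and 1.31, adjusted p of 0.0239 and 0.0102). PHGDH, the first enzyme of serine synthesis, PSPH and SHMT2 lay at 0.30, 0.29 and 0.22. ALDH1L2 (0.21) was low, at 7.75, 2.03 and 0 CPM in WT and 4.57, 3.79 and 2.94 CPM in KD. It overlaps WASHC4 on the opposite strand, at a mean of 28.4 CPM in WT and 27.6 CPM in KD, with the strand setting not stated.

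The 7 other amino acid enzymes had a median of 0.86, with 0 called by edgeR without the block, 2 at an unadjusted p under 0.05 and 1 by DESeq2. With the block, 4 were called. ASNS, asparagine synthetase and a standard reporter of the amino acid response, had 245, 59.7 and 69.5 CPM in WT and 257, 272 and 241 CPM in KD. WT 1 was level with KD, and the other two WT libraries lay far below. The log2 fold change was 1.04 (SE 0.47, adjusted p = 0.342), with the block 1.37 (adjusted p = 0.0306), and without WT 1 it was 1.99 (adjusted p = 0.000847). DESeq2 with the block did not call ASNS (1.36, adjusted p = 0.119). CTH, which makes cysteine from cystathionine, had 52.8, 10.2 and 13.3 CPM in WT and 55.5, 69.6 and 47.1 CPM in KD. Here too WT 1 fell among the KD values, and the gene was called with the block (1.56, adjusted p = 0.0419) and not without it (1.18, SE 0.54, adjusted p = 0.352).

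PCK2, the mitochondrial PEP carboxykinase, had 155, 53.9 and 55.8 CPM in WT and 165, 225 and 169 CPM in KD. GPT2, the mitochondrial alanine transaminase, had 104, 62.3 and 61.1 CPM in WT and 127, 152 and 132 CPM in KD. Neither overlapped between groups, and both were called with the block, at 1.26 (adjusted p = 0.0317) and 0.90 (adjusted p = 0.0197), while edgeR without it gave 1.08 (SE 0.39, adjusted p = 0.218) and 0.86 (SE 0.24, adjusted p = 0.116). DESeq2 without the block called GPT2 (adjusted p = 0.0208) and not PCK2 (adjusted p = 0.0504). CBS, which precedes CTH in transsulfuration, was called without WT 1 (1.14, adjusted p = 0.0175) and not by edgeR in the fits of all 6 libraries (0.68 without the block), whereas DESeq2 with the block called it (0.77, adjusted p = 0.0107). PYCR1 (0.41) and ALDH18A1 (-0.05), both of proline synthesis, were not called.

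Of the 8 amino acid transporters, 0 were called by edgeR without the block, 1 had an unadjusted p under 0.05 and DESeq2 called 1, and the median was 0.31. SLC1A5, the neutral amino acid carrier that brings glutamine into the cell, had 538, 608 and 556 CPM in WT and 732, 1064 and 919.7 CPM in KD. The groups did not overlap and WT 1 was the lowest of its group. SLC1A5 was called with the block (0.66, adjusted p = 0.0153). Without the block it was called by DESeq2 (adjusted p = 0.0274) and not by edgeR (0.67, SE 0.21, adjusted p = 0.149). SLC7A5 and SLC3A2, the chains of the leucine carrier LAT1, also did not overlap (0.42 and 0.45) and were not called by edgeR without or with the block or without WT 1, while DESeq2 with the block called both (adjusted p = 0.0131 and 0.0104). SLC7A11, the cystine carrier, had 90, 13.8 and 17.8 CPM in WT and 65.2, 23.6 and 29.9 CPM in KD. Both libraries numbered 1 were high, and its log2 fold change was -0.03 without the block and 0.35 with it. SLC6A9 lay at 0.54, SLC7A1 at 0.19, SLC1A4 at -0.04 and SLC38A2 at -0.22.

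Aminoacyl-tRNA synthetases join each amino acid to its tRNA. Of the 10 cytosolic synthetases among the members, edgeR called 1 without the block, 4 with it and 3 without WT 1, and the median was 0.55. DESeq2 called 4 without the block, WARS, SARS, YARS and MARS, and 6 with it. WARS, the tryptophanyl-tRNA synthetase (GRCh37, chr14:100800127-100843142, minus strand), is known to be induced by interferon gamma as well as by ATF4. It had 313, 261 and 229 CPM in WT and 832, 952 and 942 CPM in KD. The groups lay far apart, with WT 1 close to the other WT libraries. WARS rose 3.39-fold (log2 1.76, SE 0.21, adjusted p = 0.00183), and was called in each fit that left out 1 library, at 1.66 to 1.88.

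SARS (seryl) had 383, 236 and 247 CPM in WT and 503, 558 and 466 CPM in KD. YARS (tyrosyl) had 385, 356 and 335 CPM in WT and 518, 615 and 596 CPM in KD. MARS (methionyl) had 309, 301 and 318 CPM in WT and 436, 522 and 465 CPM in KD. None of the 3 overlapped between groups. With the block they were called at 0.85, 0.68 and 0.61 (adjusted p = 0.0132, 0.0153 and 0.0209), and without it they were at 0.82, 0.68 and 0.62 (SE 0.23, 0.19 and 0.18) with adjusted p of 0.122, 0.102 and 0.131 in edgeR and of 0.0124, 0.00656 and 0.0176 in DESeq2. CARS (cysteinyl) also did not overlap (0.49) and was called by edgeR without both libraries numbered 1 (0.72, adjusted p = 0.0449) and by DESeq2 with the block (0.47, adjusted p = 0.0484). GARS (glycyl) was called without WT 1 (1.10, adjusted p = 0.0117) and not by edgeR in the fits of all 6 libraries (0.60 without the block), whereas DESeq2 with the block called it (0.71, adjusted p = 0.0102). AARS lay at 0.32, IARS at 0.13, NARS at -0.04 and EPRS at -0.23. XPOT, which exports tRNA from the nucleus, lay at 0.17.

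**Figure D4:**
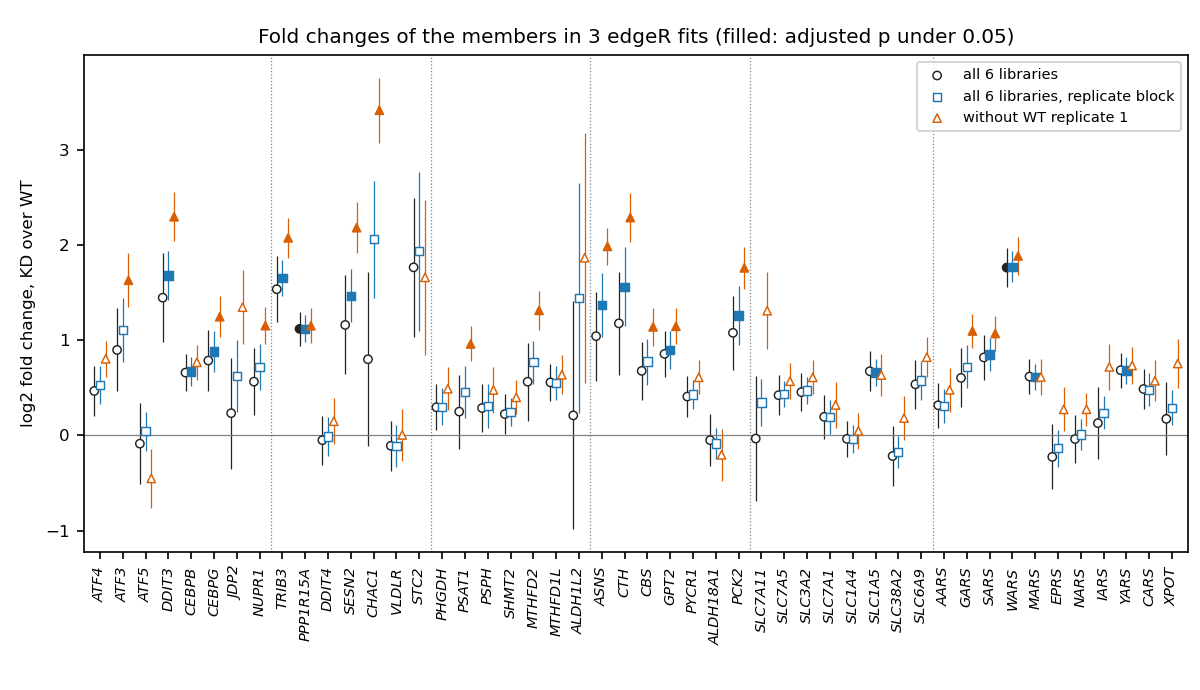
Points give the log2 fold change of KD over WT (vertical axis) of the 48 members (horizontal axis, dotted lines between roles) in 3 edgeR fits, with bars of 1 SE and filled points at an adjusted p under 0.05. WARS and PPP1R15A are filled in the 3 fits, and 15 members are filled with the block.

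Described next are the 10 cytosolic synthetases that are not members. They had a median log2 fold change of 0.08, and edgeR called 0 of 10 in either direction, without or with the block, with 0 at an unadjusted p under 0.05, while DESeq2 called 0 without the block and 1 lower with it. With the 3 scaffold proteins of the multisynthetase complex, the values ran from -0.56 in LARS to 0.40 in EEF1E1. QARS was the gene of this group in which every KD library lay below every WT library (-0.42, adjusted p = 0.374). WT 1 was the highest WT library in 5 of these 13 genes. The 17 mitochondrial synthetases had a median of 0.11 and ran from -0.77 in RARS2 to 0.45 in AARS2. In 4 of them every KD library lay above every WT library and in 5 every KD library lay below, against 11.8% and 10.5% of all genes. edgeR called 0 of 17 without or with the block, 4 had an unadjusted p under 0.05, and DESeq2 called 0 without the block and 2 lower with it. A test of the member synthetases against these other synthetases was not run. The lists were chosen with earlier results of these data known, so the split of the family was not independent of the data.

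**Figure D5:**
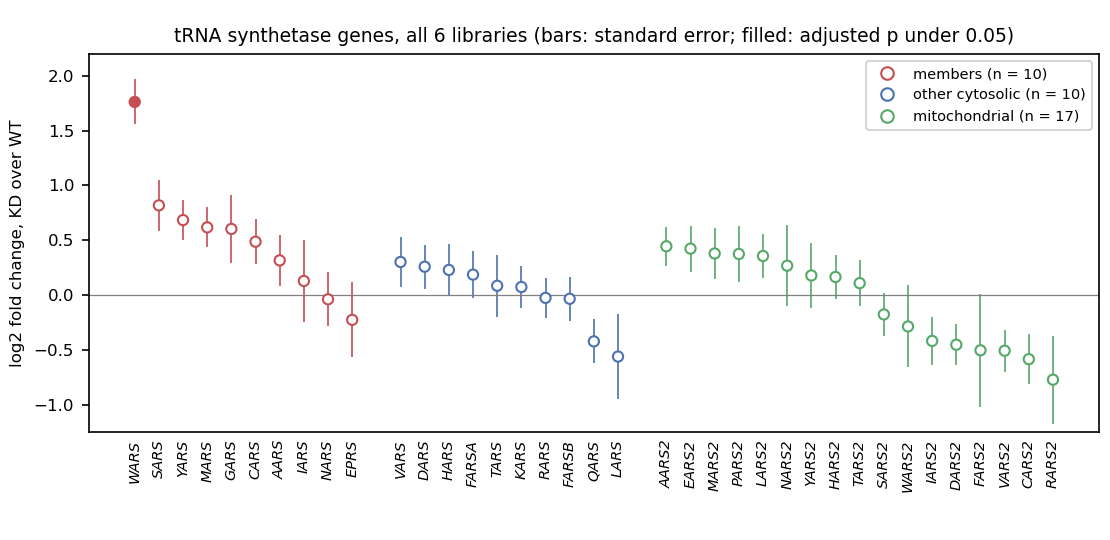
Points give the log2 fold change of KD over WT (vertical axis) with bars of 1 SE for 37 synthetase genes (horizontal axis), ordered by value within the members, the other cytosolic and the mitochondrial synthetases. WARS at 1.76 is the filled point (adjusted p under 0.05), and the others lie between -0.77 and 0.82.

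Promoter sequence was examined for the element named CARE, the binding element of many ATF4 targets. RefSeq promoters (GRCh38.p14, 250 bases before to 50 after the gene start) were held for 40 of the 48 members and for 27305 genes in all. The core TGATGNAA, on either strand, was present in 11 of the 40 (27.5%) and in 3.67% of all promoters. The interferon-stimulated response element (ISRE, here GAAA, any 2 bases, then GAAA, on either strand) was present in 1 member, ATF5 (2.5%), against 3.65% of all, and a gamma-activated sequence, TTCNNNGAA, in SLC3A2 and CARS (5.0%), against 7.88%. The windows below are written 5′ to 3′ on the strand of the motif, with the CARE core in capitals, and are those of 4 stress or metabolic genes and of the 5 synthetases that held it:
ASNS, chr7:97872460-97872485, minus strand: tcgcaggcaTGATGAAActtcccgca
CHAC1, chr15:40953253-40953278, minus strand: tggcaggagTGATGCAAcggcagggg
ATF3, chr1:212565207-212565232, plus strand: aggtcaggaTGATGGAAggctgtcat
MTHFD1L, chr6:150866348-150866373, plus strand: cgccggctcTGATGCAAtcgcgccgg
AARS, chr16:70289677-70289702, plus strand: taacttggcTGATGCAActgcgagaa
MARS, chr12:57488055-57488080, minus strand: atccctcgcTGATGCAAccggaaccg
NARS, chr18:57621806-57621831, minus strand: tacgctctcTGATGCAAcgccggaat
IARS, chr9:92293694-92293719, plus strand: gcacggaggTGATGCAAcgcgctgaa
CARS, chr11:3057409-3057434, plus strand: cctagaatcTGATGCAAccgccgccc

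Of the 5 synthetases in that set, MARS was called with the block, and NARS and IARS lay near 0 (-0.04 and 0.13). Neither WARS nor PPP1R15A, the 2 genes called by edgeR without the block, held any of the 3 motifs in its window. The other members with the core were SLC3A2 and SLC7A1. NUPR1, PSPH, SHMT2, ALDH1L2, GPT2, PYCR1, SLC7A11 and YARS had no promoter to examine. A match is a run of letters and not evidence of binding. Only a single short window per gene was searched, so the absence of a match does not show that a gene lacks the element.

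Upstream of ATF4, 15 genes for the eIF2 kinases, eIF2, its exchange factor eIF2B and their partners had a median log2 fold change of 0.14. EIF2AK2 (PKR), the kinase that double-stranded RNA activates and that interferon induces, had 27.3, 14.1 and 17.2 CPM in WT and 144, 103 and 102 CPM in KD. The groups lay far apart, and EIF2AK2 rose 5.95-fold (log2 2.57, SE 0.29, adjusted p = 0.00144). With the block PPP1R15B, the constitutive partner of the eIF2 phosphatase, was called as well (0.88, adjusted p = 0.0121).

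Of 18 other genes that depend on ATF4 in some settings, 15 were tested and the median was 0.43. Among these, 2 were called higher, where 1.75% of all tested genes were. GADD45A, a DNA damage and stress gene, rose from 26.6, 26.6 and 24.8 CPM in WT to 196, 262 and 204 CPM in KD (log2 3.09, SE 0.20, adjusted p = 5.21e-05). VEGFA, the angiogenic growth factor, rose from 92.6, 91.8 and 106 CPM to 172, 273 and 252 CPM (log2 1.27, SE 0.22, adjusted p = 0.0166), a call lost without WT 2, WT 3, KD 2 or KD 3 (adjusted p = 0.0882, 0.0680, 0.0968 and 0.116). With the block GDF15 (1.6, adjusted p = 0.00380), ADM2 (2.26, adjusted p = 0.00735) and MAP1LC3B (0.89, adjusted p = 0.00936) were called in addition, where 5.1% of all tested genes were called higher. DESeq2 called GDF15 and MAP1LC3B without the block as well, and not ADM2 (adjusted p = 0.407). The groups of ADM2 overlapped, with WT 1 at 28.7 CPM and KD 3 at 27.1 CPM. Over the 15 genes tested, WT 1 was the highest WT library in 12 (80%) and more than 2-fold above both others in 6 (40%). Among all tested genes these shares were 41.2% and 9.75%. FGF21, BCAT1 and SLC7A3 had too few counts to be tested.

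Chaperones and sensors of the endoplasmic reticulum, which answer to the other arms of the unfolded protein response, had a median of 0.11 over 18 genes. edgeR called 0 of them without the block, with 1 at an unadjusted p under 0.05 and 0 called by DESeq2, and 2 with it, HSPA5 (0.61, adjusted p = 0.0283) and XBP1 (0.68, adjusted p = 0.0472). The values ran from -0.45 in CRELD2 to 0.93 in DNAJB9. The 11 other serine and folate genes had a median of -0.38, with 0 called by edgeR without the block, 3 at an unadjusted p under 0.05, and 2 called lower by DESeq2. With the block, genes called lower included SHMT1 (-0.59, adjusted p = 0.0314), a cytosolic enzyme that links serine and glycine, and TYMS (-1.16, adjusted p = 0.000577), which makes thymidylate for DNA synthesis.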

How the data were processed

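Per the labels, RNA was purified with the RNeasy Mini kit and poly(A)-selected, and libraries were made with the NEBNext Ultra Directional kit. The authors deposited 1 table of expected counts per gene (estimated read counts, not normalized) for the 6 libraries. The submitters' processing notes name STAR, RSEM and hg19, and the annotation and strand setting are not given in the sources used here. Of 57820 rows, 33470 were at 0 in every library.

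The expected counts were rounded, filtered with filterByExpr (15605 genes kept), scaled by TMM and tested with edgeR 4.0.16 quasi-likelihood tests (R 4.3.3, limma 3.58.1), with p-values adjusted by Benjamini-Hochberg across the 15605 genes and called below 0.05. CPM are counts relative to the TMM-scaled library size. DESeq2 1.42.0 and limma-voom served as alternatives. Replicate numbers are shared between the groups in the labels, but nothing says what a number marks. Over 10569 genes with a mean of at least 5 CPM, deviations from the group means correlated at 0.509, 0.356 and 0.292 between same-numbered libraries, against -0.415 to 0.224 between others, so the number was also fitted as a block. The match was clearest for number 1. Libraries numbered 2 and 3 correlated with each other across groups at 0.162 and 0.224, so those numbers were told apart only weakly.

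On simulated counts for 15605 genes with 200 changed, the unblocked test called 73.0% of 4-fold and 20.2% of 2-fold changes and 3 unchanged genes. The paper gives n = 3 for its enrichment analysis of RNA-seq and describes such n as biologically independent samples. The labels do not say how the replicates were kept separate, so p-values measure the spread between these samples. With 3 against 3 an exact two-sided permutation test of a single value could not go below 0.1.

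The 48 members and the other gene lists were chosen with earlier results of these data known. Members called by edgeR without or with the block, ATF4 and DDIT3 are given in full; of other lists, the called genes, or otherwise the highest and lowest, are named. Genes beyond this rule, such as CHAC1, GARS, MTHFD1L and SLC7A11, were named after their values were seen. Gene positions are from GENCODE on GRCh37, and promoters from RefSeq on GRCh38.p14. A gene of the other serine and folate list is not reported here.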

Additional observations from a re-analysis of the deposited data

How the results depend on the processing

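The number of members called higher by edgeR, 2 in all, depended most on the libraries numbered 1. It was 15 with the replicate block, 24 by DESeq2 with the replicate block and 25 without both libraries numbered 1. It was 10 by DESeq2, 10 with no filter on low counts, 1 at an adjusted p under 0.01, and 1 to 18 when 1 library was left out, with the 18 without WT 1. Of the 15 called with the block, 11 were among the 18 called without WT 1 and 15 among the 25. For the 10 member synthetases, 1 call became 4 by DESeq2, 2 with no filter, 4 with the block, 6 by DESeq2 with the block, 6 without both libraries numbered 1 and 1 to 3 with 1 library left out. The other cytosolic synthetases gave 1 call by DESeq2 with the block and 0 otherwise. Beyond the calls named here and in the results, the block changed no other edgeR call of a member. STAG2 ran from -2.63 to -1.68 with 1 library left out.

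No member reversed while called. With limma-voom, the block and DESeq2 with the block, the log2 fold changes became 0.044, 0.042 and 0.035 for ATF5, 0.41, 0.35 and 0.34 for SLC7A11, and 0.011, 0.0096 and 0.0013 for NARS. Without both libraries numbered 1 they became 0.075 for DDIT4, 0.081 for VLDLR, 0.0197 for ALDH18A1, 0.77 for SLC7A11, 0.10 for SLC1A4, 0.0033 for SLC38A2, 0.17 for EPRS and 0.21 for NARS. With 1 library left out the ranges that crossed 0 were -0.45 to 0.41 for ATF5, -0.18 to 1.35 for JDP2, -0.28 to 0.15 for DDIT4, -0.29 to 0.0039 for VLDLR, -0.045 to 0.96 for PSAT1, -0.38 to 1.87 for ALDH1L2, -0.33 to 0.17 for ALDH18A1, -0.60 to 1.31 for SLC7A11, -0.13 to 0.047 for SLC1A4, -0.41 to 0.18 for SLC38A2, -0.48 to 0.27 for EPRS, -0.19 to 0.27 for NARS, -0.15 to 0.72 for IARS and -0.12 to 0.75 for XPOT. Why the libraries numbered 1 carry these differences was not tested. With 3 replicates a group, the test called only 20.2% of simulated 2-fold changes, in counts without a library like WT 1 or an effect of replicate number.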
